A study of Mus with 6 samples.

Results

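The genes examined here encode the machinery of protein synthesis: initiation factors (symbols from Eif1 to Eif6), elongation factors (Eef1 and Eef2) and the cytoplasmic aminoacyl-tRNA synthetases. They were taken by symbol alone from the array annotation, without Eif2ak2, which gave 81 genes on 169 probes out of 19057 named genes and 45281 probes. The symbols also bring in kinases, methyltransferases and inhibitors that act on these factors, and 1 pseudogene, Eif2s3x-ps1. RNA came from leukaemic bone marrow cells of C57BL/6 mice, taken 14 days after transplantation and measured on 6 one-colour Illumina bead arrays. Both groups had chronic myeloid leukaemia (CML) induced by the p210 form of BCR-ABL, and the sort kept GFP+ LSK cells (lineage-, Sca-1+, c-Kit+), a fraction rich in stem and early progenitor cells. The groups were WT (3 arrays) and Klf4-deficient (3 arrays), the latter without the zinc finger transcription factor Klf4. The labels give no age, no way by which Klf4 was removed, and no statement that each array is a separate mouse, so the p-values reflect only how far these samples spread, and that spread may be technical. No array of normal, non-leukaemic LSK cells was analysed here.

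Protein synthesis starts when eIF2, bound to GTP, brings the initiator tRNA to the small ribosomal subunit, where eIF1, eIF1A, eIF3 and eIF5 help to find the start codon. The eIF4 factors bind the mRNA cap and unwind the leader, and the 4E-BP proteins hold back eIF4E until mTOR signalling releases it. eEF1A then delivers charged tRNAs, eEF2 moves the ribosome along, and the synthetases load each tRNA with its amino acid. BCR-ABL is known to feed into mTOR and eIF4E, and blood stem cells are known for a low rate of protein synthesis.

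Between 7082 and 7214 probes per array exceeded an intensity of 32, the floor below which a value was treated as background. The 6 columns hold nearly the same set of values, so these similar counts say little about the quality of an array. WT replicate 3 stood apart, with correlations of 0.29 to 0.31 (Pearson r, log2 values of the 13773 features tested) to the other 5 arrays, which correlated at 0.68 to 0.74 among themselves. The targeted gene gave no check of the labels, since of its 3 probes on 6 arrays only WT replicate 2 on ILMN_2999439 exceeded the floor, at 51.9. Of 11 stem and progenitor markers with a probe, 10 exceeded the floor on some array and 0 on all 6, and Slamf1 stayed below it everywhere. Their summed level was 561 to 3060 in WT and 902.6 to 2063.4 in Klf4-deficient arrays. Kit, which the sort selects for, read 11.5, 17.4 and 381.5 in WT against 118.1, 7.3 and 63.1 in Klf4-deficient arrays. Myb, Gata2 and Flt3 were below the floor in WT replicate 3 alone (2.2, -1.9 and -12.3). Of the 10 stem and progenitor markers tested, WT replicate 3 was the lowest array for 6 and the highest for 3. Over all features it was the lowest for 28.4% and the highest for 31.9%. Neutrophil lineage markers summed to 2712.9 to 7902 in WT and 2289 to 3205.4 in Klf4-deficient arrays. The highest sum, in WT replicate 3, was mostly Mpo (7153.2 there, 3117 and 1735.2 in the other WT arrays). Of the 13 with a probe, 11 exceeded the floor on some array, and WT replicate 3 was the highest array for 4 and the lowest for 3. Ltf and Mmp8 peaked in WT replicate 3 (291.9 and 308.4), S100a8 and S100a9 in Klf4-deficient replicate 3 (505.9 and 986.3). Ctsg was below the floor in WT replicate 3 alone (8.8). Erythroid markers summed to 2216.4 to 5602.8 in WT and 4545.1 to 5765.9 in Klf4-deficient arrays. Within these overlapping sums Alas2, the haem synthesis enzyme of red cells, read 8.8, 26.1 and -15 in WT against 172, 114.1 and 160.7 in Klf4-deficient arrays. Thy1, on the T and NK list, read 24.4, 26 and -7 in WT against 113, 187.2 and 146 in Klf4-deficient arrays. For both the groups were separate, with limma unadjusted p-values of 0.00017 and 0.00024, smaller than that of any translation gene, and an adjusted p of 0.71. Both were picked after their values were seen. Each was the only gene with separate groups among 9 erythroid and 8 T and NK genes tested, beside 3.41% of all features. Of those 9 and 8 genes, 6 and 4 had differences above 0, and 3 and 4 below. The sums were 63.3 to 456.7 in WT and 83.2 to 173.7 in Klf4-deficient arrays for monocytes and macrophages, 75.4 to 173.6 and 72.5 to 157 for B cells, 154.3 to 691 and 328.1 to 650.3 for T and NK cells, and 246.9 to 1474.2 and 488.8 to 1205.9 for megakaryocytes. Cd79b, Ms4a1, Pax5, Mrc1, Klrb1c and Vwf lay below the floor on all arrays. Csf1r (274.3), Cd3d (225.4), Il7r (350.4) and Itga2b (264) peaked in WT replicate 3, Gp9 in WT replicate 2 (1307.8), and Ctss (108.9) and Cd8a (141.8) in Klf4-deficient replicate 3. WT replicate 3 was highest for 3 of 5 monocyte and macrophage and 4 of 8 T and NK markers tested. It was highest for 1 of 3 B cell and 1 of 3 megakaryocyte markers, and for 31.9% of all features. Whether such cells play a part in the values below was not tested, and in bulk RNA fewer cells of a type and less RNA per cell cannot be told apart.

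Translation genes were measured more fully than most of the array. Of the 81 genes, 67 exceeded the floor on at least 1 array and were tested, and 19 of these 67 (28.4%) did so on all 6 arrays, against 7.88% of the 13773 features tested. The 14 genes below the floor throughout were Eif2ak3, Eif2ak4, Eif3e, Eif3j1, Eif4e1b, Eif4e3, Eif4g3, Eif4ebp1, Eif4ebp3, Eif5a2, Eef2k, Eef2kmt, Cars and Farsa. They include 2 of the 3 eIF2 kinases considered here, the kinase that switches off eEF2, and the best known 4E-BP. Their values say only that these probes were not above 32.

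Setting the 2 groups side by side addresses how loss of Klf4 bears on transcript levels in leukaemic LSK cells. No translation gene passed the test: limma called 0 of 67 genes at an adjusted p under 0.05, with adjusted p-values of 0.72 to 0.99, and the background was 0 of 13773 features (0%). A variance model with trend and robust fitting also called 0 of 67, with 1 at an unadjusted p under 0.05 (1.49%, background 1.17%). At an unadjusted p under 0.05 there were 4 of 67, Eif4b, Eif4a3 and Eif4a1 with higher and Eef1d with lower values in the Klf4-deficient group. That is 5.97% of the members against 2.16% of all features. The order turned among features above 32 on at least 3 arrays (2.04% against 3.97%). It also turned where 16 was added to the values instead of flooring them (2.99% against 3.72%). By direction the main fit gave 3 of 67 upward (background 1.52%) and 1 of 67 downward (background 0.646%). The arrays of the 2 groups did not overlap for 5 of 67 genes, those 4 and Eef1a1, against 3.41% of all features (2.33% with Klf4-deficient arrays above WT, 1.07% with them below). With every probe as its own feature, 0 of 127 member probes were called (background 0% of 18270 probes), 8 had an unadjusted p under 0.05 (6.3%, background 2.03%) and 11 did not overlap (8.66%, background 3.09%). Without WT replicate 3, 0 of 66 genes were called (background 0%), 3 had an unadjusted p under 0.05 (4.55%, background 3.71%) and 8 did not overlap (12.1%, background 9.02%). Of the 67 differences, 33 were above 0 and 34 below, with a median of -0.06 (log2) beside -0.07 for all features tested. Leaving out 1 array moved the difference by over 1.5 times, or turned its sign, for 25 of the 29 named genes tested, the exceptions being Eef1d, Eif4a3, Eif4b and Eif4g2.

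**Figure D1:**
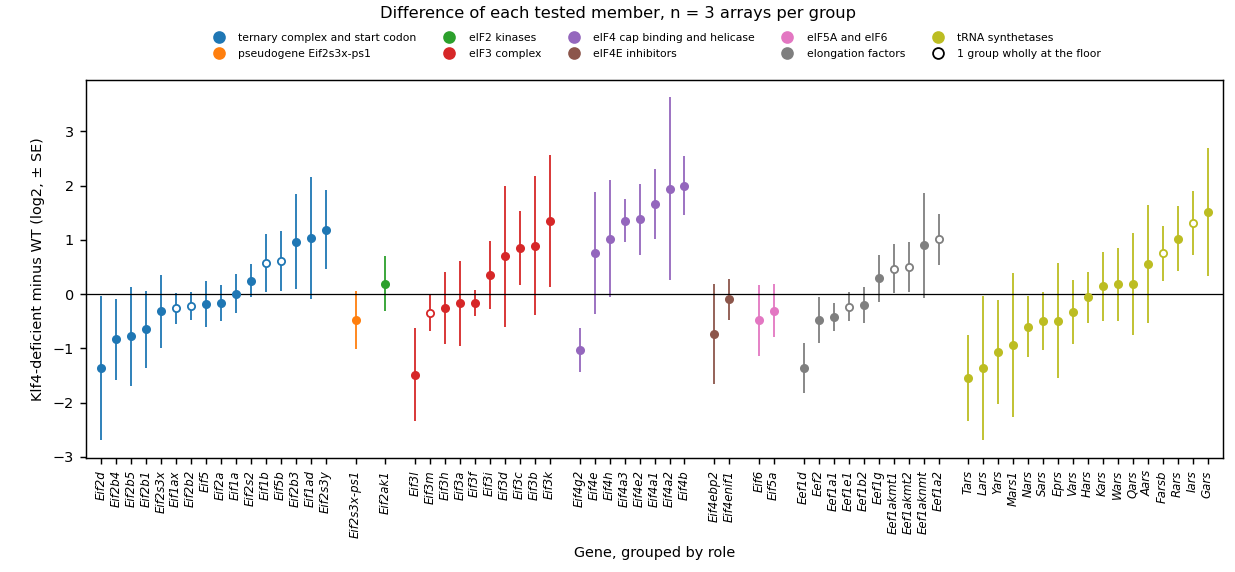
Difference between Klf4-deficient and WT means (log2, y axis) for the 67 tested translation genes (x axis, grouped by role), with points for the difference on the brightest probe and bars for its SE (n = 3 arrays per group); open points had 1 group wholly at the floor of 32. The differences run from -1.54 (Tars) to 2.00 (Eif4b), 33 above and 34 below 0, and 7 of the 8 eIF4 genes lie above 0.

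The eIF4 factors, which bind the cap and recruit ribosomes, held the 3 initiation genes with separated groups on the brightest probe. Eif4b, a cofactor that stimulates the helicase eIF4A, read 56.1, 77.6 and 0.6 in WT against 164.1, 387.3 and 139.9 in Klf4-deficient arrays. All Klf4-deficient values lay above all WT values, and WT replicate 3 was at background. The difference was 2.00 ± 0.54 (log2 ± SE over 3 arrays a group, adjusted p from limma 0.72), and 0.69 with the mean over its probes. Its second probe had the opposite sign, at 245.6, 70 and -3 in WT against 8.6, 147.6 and 28.7 in Klf4-deficient arrays (-0.62 ± 1.00). Eif4a1, the main helicase of cap-dependent initiation, read 427.8, 824 and 157.5 in WT against 1303.6, 961.4 and 1394.6 in Klf4-deficient arrays. The groups did not overlap on this probe, which was bright on every array. The difference was 1.66 ± 0.64, and 1.02 without WT replicate 3, the lowest array. On its second probe the groups overlapped, with 312.1, 55.8 and 3.2 in WT against 42.8, 250.6 and 292.4 (0.83 ± 1.17). Eif4a3, a related helicase of the exon junction complex, read 24.9, 33.4 and -1.9 in WT against 131.9, 86.8 and 50 in Klf4-deficient arrays. The groups were separate here too, with 1 WT array just above the floor. The difference was 1.36 ± 0.39, and 1.34 without WT replicate 3, but 0.49 with a floor of 64.

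The remaining eIF4 genes gave overlapping groups. Eif4e, the cap-binding protein and the target of mTOR and MNK signalling, read 111.8, 106.7 and -12.9 in WT against -0.2, 496.3 and 116.2 in Klf4-deficient arrays. Each group thus held 1 array at background, and Klf4-deficient replicate 2 alone was far above the rest. The difference of 0.76 ± 1.13 turned to -0.25 without that array. Eif4g2, a scaffold related to eIF4G that supports cap-independent initiation, read 2014.8, 1156.5 and 1739.3 in WT against 1202.4, 777.4 and 515.7 in Klf4-deficient arrays. The groups overlapped by 1 pair of arrays, and the difference was -1.02 ± 0.41. A second Eif4g2 probe went the other way without overlap, at 239.9, 333.1 and 10.9 in WT against 400.7, 443.1 and 402.6 in Klf4-deficient arrays (1.60 ± 0.94, and 0.55 without WT replicate 3). With the mean over its probes the Eif4g2 difference was 0.28, so no direction can be given for the gene. Eif4e2, Eif4h and Eif4a2, named after their values were seen, had differences of 1.38 ± 0.65, 1.02 ± 1.08 and 1.94 ± 1.69, with WT replicate 3 below the floor in each case. Without that array they were 0.98, -0.20 and 0.03. As a group, 7 of 8 tested eIF4 genes had differences above 0, with a median of 1.37 beside -0.07 for all features. WT replicate 3 was the lowest array for 7 of these 8 genes, against 28.4% of all features, and without it the median was 0.57 (beside 0.06 for all features), with 6 of 8 above 0.

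Of 4 genes that restrain eIF4E, 2 were tested and 2 were at the floor throughout. Eif4ebp1 read 26.1, -9.1 and -14 in WT against -5.1, 11.1 and -7.9 in Klf4-deficient arrays, and so gave no level in either group. Eif4ebp2, another 4E-BP, read 154.2, 189.9 and -3 in WT against 34.7, 40.8 and 145 in Klf4-deficient arrays. The groups overlapped, and the difference of -0.73 ± 0.92 was -1.54 without WT replicate 3, -0.25 without WT replicate 2 and -0.09 where 16 was added to the values rather than flooring them. Eif4enif1, which carries eIF4E into the nucleus, differed by -0.10 ± 0.38, and by 0.19 without WT replicate 3.

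Start codon selection was covered by 16 genes, all tested, of which 7 had differences above 0 and 9 below (median -0.17). Eif5, which makes eIF2 hydrolyse its GTP at the start codon, gave the smallest unadjusted p of the 127 member probes, but on a probe other than its brightest. Probe ILMN_1240466 read 148.6, 164.8 and 104.9 in WT against 365.8, 363.4 and 412 in Klf4-deficient arrays. Every Klf4-deficient array lay above every WT array by a wide gap, WT replicate 3 included. The difference was 1.47 ± 0.23, or 2.77-fold, and 1.28 without WT replicate 3, with a limma unadjusted p of 0.0012 and an adjusted p of 0.71 over all 18270 probes. The brightest Eif5 probe read 482.7, 1083 and 1179.1 in WT against 847.8, 603.7 and 831.4 in Klf4-deficient arrays. There the groups overlapped and the difference was -0.18 ± 0.42, or 0.06 without WT replicate 3. The remaining probe differed by 1.1003 ± 0.93. In the annotation the tightly separated probe is assigned to a transcript record of Eif5 other than the record shared by the other two.

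The subunits of eIF2 and of its exchange factor eIF2B were dim or scattered. Eif2s3y, the copy of the eIF2 gamma subunit gene on the Y chromosome, read 172.7, 60.5 and 15.6 in WT against 91.7, 190.8 and 227.8 in Klf4-deficient arrays. The groups overlapped, with a difference of 1.19 ± 0.73 (0.63 without WT replicate 3). Its second probe was separate, at 14.8, 38.7 and 34.7 in WT against 46.3, 193.1 and 280.5 in Klf4-deficient arrays (1.96 ± 0.71). The X-linked copy, Eif2s3x, exceeded the floor on 2 arrays, at 127.8 in WT replicate 1 and 66.2 in Klf4-deficient replicate 2 (-0.32 ± 0.68, turning to 0.35 without WT replicate 1). These copies and Eif2s3x-ps1 (-0.48 ± 0.53) are near-identical genes, and how far a probe of one binds the others was not analysed here. Eif2b4, a subunit of eIF2B, read 130.8, 99.1 and 424 in WT against 46.8, 146.7 and 141.9 in Klf4-deficient arrays. The groups overlapped, WT replicate 3 was the highest array, and the difference of -0.83 ± 0.75 was -0.20 without it. Another subunit gene, Eif2b3, named after its values were seen, was above the floor on all arrays with a difference of 0.97 ± 0.88, and Eif2b1, Eif2b2 and Eif2b5 lay between -0.78 and -0.22.

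Of the kinases that phosphorylate eIF2 under stress, Eif2ak2 was not examined here. The others were at background, apart from Eif2ak1, the haem-regulated kinase of erythroid cells. It read 59.5, 10.1 and -16.7 in WT against 33.4, 20.7 and 85.8 in Klf4-deficient arrays. The values overlapped, with 1 WT and 2 Klf4-deficient arrays above the floor. The difference was 0.20 ± 0.51, and -0.27 without Klf4-deficient replicate 3. Eif2ak3 (PERK, the kinase of the endoplasmic reticulum) and Eif2ak4 (GCN2, the sensor of uncharged tRNA) did not exceed 30.3 on any array or probe.

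The eIF3 complex, the scaffold between mRNA and the small subunit, had 10 of 12 genes tested, 5 above 0 and 5 below (median 0.10). Eif3f was the steadiest member of all, at 1409, 1613 and 1624.1 in WT against 1632.6, 1492.7 and 1088.7 in Klf4-deficient arrays. Its highest and lowest arrays differed by 1.4996-fold, WT replicate 3 lay among the others, and its second probe, at 783.1 to 1748.2, also showed overlapping groups. The difference was -0.16 ± 0.24, with the sign turning (0.01) without Klf4-deficient replicate 3. Eif3i read 3735.9, 2286.6 and 980.4 in WT against 4252.4, 2511.1 and 1639.8 in Klf4-deficient arrays. Its second bright probe read 2851.6, 1884.9 and 725.1 in WT against 3024.6, 1745.4 and 1283.5 in Klf4-deficient arrays. WT replicate 3 was the lowest array on both probes, and the groups overlapped. The differences were 0.35 ± 0.62 and 0.27 ± 0.62, turning to -0.17 and -0.29 without WT replicate 3.

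Other eIF3 subunits turned on WT replicate 3. Eif3d, the subunit that can bind the cap of some mRNAs, read 2313.4, 391.2 and 71.5 in WT against 657.5, 973.9 and 433.3 in Klf4-deficient arrays. WT spanned the whole range, and the difference of 0.70 ± 1.30 was -0.54 without WT replicate 3. Eif3a, the largest subunit, read 968.8, 271.2 and 1762.7 in WT against 980.4, 825 and 400.6 in Klf4-deficient arrays. Here WT replicate 3 was the highest array, and -0.17 ± 0.79 became 0.42 without it. Eif3c, a core subunit, read 123.8, 173.6 and -9.9 in WT against 182.6, 161.8 and 137.6 in Klf4-deficient arrays. WT replicate 3 alone was at background, and the difference of 0.85 ± 0.68 was 0.12 without it. Eif3l gave 258.9, 84.6 and 801.5 in WT against 68.7, 123.1 and 95.4 in Klf4-deficient arrays (brightest probe, -1.48 ± 0.86). Its second probe gave 145.3, 50.5 and -1.9 against 151.8, 141.5 and 116.6 (1.14 ± 0.59). WT replicate 3 was the highest of the 6 arrays on the first of these probes and the lowest on the other. Without that array the second probe became the brightest, and the difference for the gene turned to 0.66. Neither probe turned its own sign, with -0.67 on the first and 0.66 on the second.

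Neither tested factor joining initiation to later steps separated the groups, and Eif5a2 was at the floor throughout. Eif5a, which keeps ribosomes moving through proline stretches and carries the amino acid hypusine, read 539.6, 1394.6 and 690.6 in WT against 421, 811.3 and 812.3 in Klf4-deficient arrays. The values overlapped and the difference was -0.30 ± 0.48. It turned to 0.10 without WT replicate 2 and to 0.17 with the mean over its 3 probes, and on the 2 dimmer probes WT replicate 3 alone was at background (-11 and 1.2). Eif6, which keeps the ribosomal subunits apart, read 57.3, 182.6 and 63.5 in WT against 79.7, 95.3 and 31.9 in Klf4-deficient arrays. WT replicate 2 was the highest, and -0.48 ± 0.65 became 0.05 without it.

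**Figure D2:**
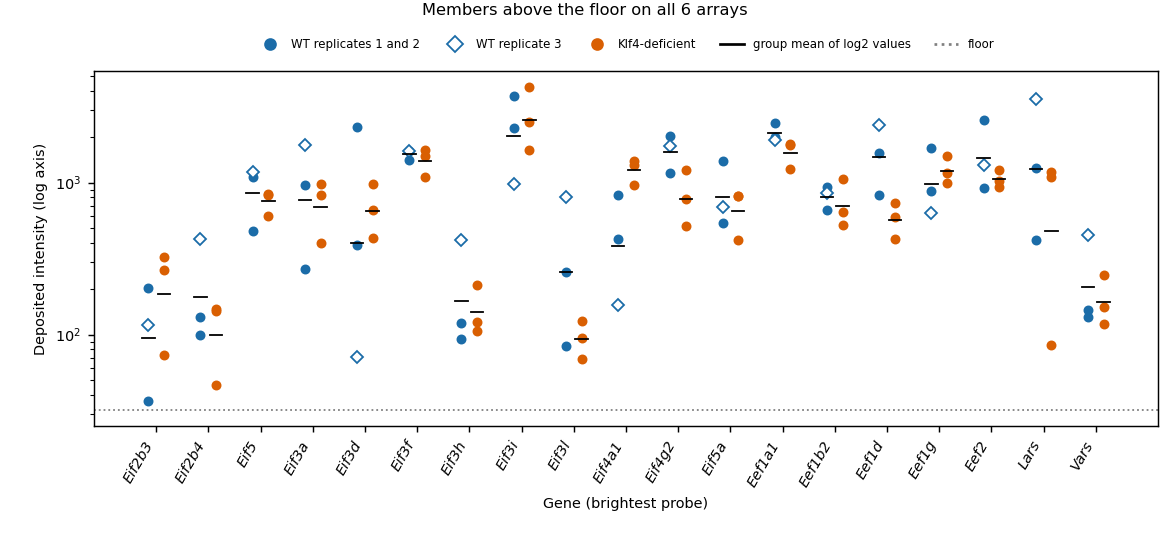
Deposited intensity (y axis, log scale) of the 19 translation genes that exceeded the floor of 32 on all 6 arrays, on the brightest probe of each; circles are arrays, open diamonds WT replicate 3, bars the group means of log2 values (n = 3), and different probes cannot be compared in level. Eif3f spans 1.4996-fold over the arrays and Lars 41.0-fold, and the groups are separate for Eif4a1, Eef1a1 and Eef1d.

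Of the 10 elongation genes tested, 5 exceeded the floor on all arrays, and the differences lay on either side of 0 (5 above, 5 below, median 0.04). Eef1d, a subunit of the complex that recharges eEF1A with GTP, read 1578.3, 831.4 and 2401.9 in WT against 592.6, 735 and 428.3 in Klf4-deficient arrays. All Klf4-deficient values lay below all WT values. The difference was -1.36 ± 0.47 (log2 ± SE over 3 arrays a group, adjusted p from limma 0.72), or 2.57-fold, and -1.003 without WT replicate 3. Its 3 other probes were below the floor on all arrays, so that the mean over its probes gave -0.34. In the annotation these 3 probes are assigned to a transcript record of Eef1d other than that of the bright probe. Of the partner subunits, Eef1b2 read 665, 935.9 and 852.1 in WT against 1052.2, 523.2 and 636.3 in Klf4-deficient arrays (-0.20 ± 0.34). Where the brightest probe was taken by mean intensity instead of mean log2, another probe stood for Eef1b2 and the difference was -1.09. Eef1g read 1687.6, 880.4 and 630.7 in WT against 1486.2, 1163.6 and 988.9 in Klf4-deficient arrays (0.29 ± 0.43). Both had overlapping groups, and the sign turned for Eef1b2 without Klf4-deficient replicate 2 (0.02) and for Eef1g without WT replicate 3 (-0.03).

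Eef1a1 and Eef2, at the core of elongation, had lower Klf4-deficient means on all their probes. Eef1a1, which encodes eEF1A, read 1989, 2475.3 and 1896 in WT against 1792.5, 1774.2 and 1230 in Klf4-deficient arrays. The groups did not overlap on this probe, though the gap between them was small. The difference was -0.42 ± 0.25, or 1.34-fold, and -0.24 without Klf4-deficient replicate 3. Its other probes, with overlapping groups, differed by -0.18 ± 0.29 and -0.15 ± 0.39, the last turning to 0.03 without WT replicate 3. Eef2, the translocase, read 2601, 919.1 and 1307.8 in WT against 1214.8, 1024.6 and 935.9 in Klf4-deficient arrays (brightest probe, -0.47 ± 0.43). Its second probe read 1147.2, 1217.3 and 1341.7 in WT against 1111, 602.6 and 852.1 in Klf4-deficient arrays (-0.57 ± 0.27). The remaining probe read 818.6, 866.2 and 1182.9 in WT against 733.8, 399.5 and 516.8 in Klf4-deficient arrays (-0.82 ± 0.30, limma unadjusted p = 0.040, adjusted p = 0.71). On these dimmer probes all WT arrays lay above all Klf4-deficient arrays, and on the brightest they overlapped. The Eef2 differences without WT replicate 3 were -0.56, -0.51 and -0.66 in the same order, and that of the brightest probe was -0.06 without WT replicate 1. Eef1a2, the form of eEF1A known from muscle and neurons, was at the floor in all WT arrays (31.6, 27.6 and 1.5) and read 27.5, 92.9 and 90.5 in Klf4-deficient arrays. Against the floor of 32 it was 2.02-fold higher there (1.01 ± 0.47), where 2 of the 3 values exceeded the floor. With a floor of 64 the difference was 0.35, so this fold is not a lower bound. Its 2 other probes were below the floor on all arrays. Eef2k, the kinase that inhibits eEF2, did not exceed 22.1 on any array.

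Of the tRNA synthetases, 17 of 19 genes were tested, 8 with differences above 0 and 9 below (median -0.06), and only Lars and Vars exceeded the floor on all arrays. Tars, for threonine, read 57.4, 196.1 and 353.3 in WT against 94.4, 26.9 and 53.5 in Klf4-deficient arrays. Its second probe read 38.7, 102.9 and 216.9 in WT against 55.2, 17 and 19.2 in Klf4-deficient arrays. The order of the WT arrays was the same on both probes, WT replicate 3 was the highest, and the groups overlapped. The differences were -1.54 ± 0.80 and -1.31 ± 0.69, and -0.96 and -0.72 without WT replicate 3. Iars, for isoleucine, was below the floor in all WT arrays (-16.2, -4 and -10.8) and read -9.6, 117.4 and 133.4 in Klf4-deficient arrays. Against the floor it was 2.48-fold higher there (1.31 ± 0.60), where 2 of the 3 values exceeded the floor. With a floor of 64 the Iars difference was 0.64, so this fold is not a lower bound. Its 3 dimmer probes differed by 0.65 ± 0.35, 0.19 ± 0.23 and -0.47 ± 0.39. Lars, for leucine, was the most scattered gene measured on all arrays, at 1256, 422.1 and 3529 in WT against 86, 1088.7 and 1174 in Klf4-deficient arrays. The extremes lay in WT replicate 3 and Klf4-deficient replicate 1, a 41.0-fold range, and the difference was -1.36 ± 1.33 (-0.60 without WT replicate 3 and -0.12 without Klf4-deficient replicate 1). Gars, for glycine, named after its values were seen, had the largest difference above 0 of the class, 1.52 ± 1.18, with WT replicate 3 alone below the floor, and 0.26 on the same probe without that array.

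How each array stood across the members is shown by their ranks. WT replicate 3 was the lowest of the 6 arrays for 28 of the 67 tested genes (41.8%, against 28.4% of all features) and the highest for 14 (20.9%, against 31.9% of all features). Of the 81 genes, 28 exceeded the floor in WT replicate 3, and 43 to 53 in each of the other 5 arrays. In WT replicate 3, 10 genes were at the floor that exceeded it on all other arrays: Eif2s3y, Eif3c, Eif3k, Eif4a2, Eif4b, Eif4e2, Eif4ebp2, Eif4h, Gars and Wars. That is 14.9% of the tested members beside 8.83% of all features, and each other array was alone at the floor for 0 to 2 members. Eif4a2, a second eIF4A helicase, read 1846.1 and 1573.5 in the other WT arrays, 22.1 in WT replicate 3, and 1331.9, 2517 and 1578.3 in Klf4-deficient arrays. Its difference of 1.94 was 0.03 on the same probe without WT replicate 3. Within groups the median SD (log2) over tested members was 0.93 for WT, against 0.58 for Klf4-deficient arrays, beside 0.73 and 0.33 for all features, of which more values lay at the floor (58.7% against 33.6% of member values).

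**Figure D3:**
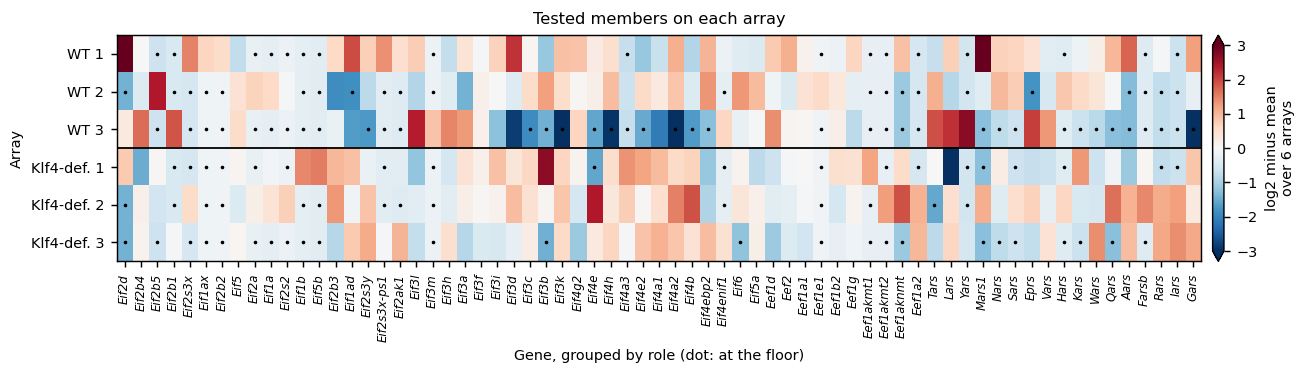
Log2 value of each tested translation gene (x axis, grouped by role) on each array (y axis) minus the mean over the 6 arrays, from blue (lower) to red (higher), with a dot where the value was at the floor of 32. WT replicate 3 was the lowest array for 28 of 67 genes and the highest for 14.

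Probes of the same gene often disagreed. Of the 36 translation genes with more than 1 tested probe, all probes had the same sign of difference for 14 (38.9%), beside 49.8% of the 3148 such genes on the array. Over probes above the floor on all 6 arrays it was 6 of 7 genes (85.7%), beside 69.7% of 66 genes. The exception was Eif5, at 1.47 and -0.18, and those with the same sign were Eef1a1, Eef1b2, Eef2, Eif3a, Eif3f and Eif3i. Eif3k, an eIF3 subunit named after its values were seen, differed by 1.36 ± 1.22 on its brightest probe and -2.21 ± 1.06 on the other. Without WT replicate 3, alone at the floor on the brightest probe, these were -0.02 and -2.05. Kars, for lysine, which was singled out after its values were seen, differed by 0.14 ± 0.64 on its brightest probe. Its second probe read -8.3, 19.6 and 2.8 in WT against 117.1, 40.4 and 53.8 in Klf4-deficient arrays (at least 1.98-fold higher, 0.99 ± 0.43), where the floor divided the groups.

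**Figure D4:**
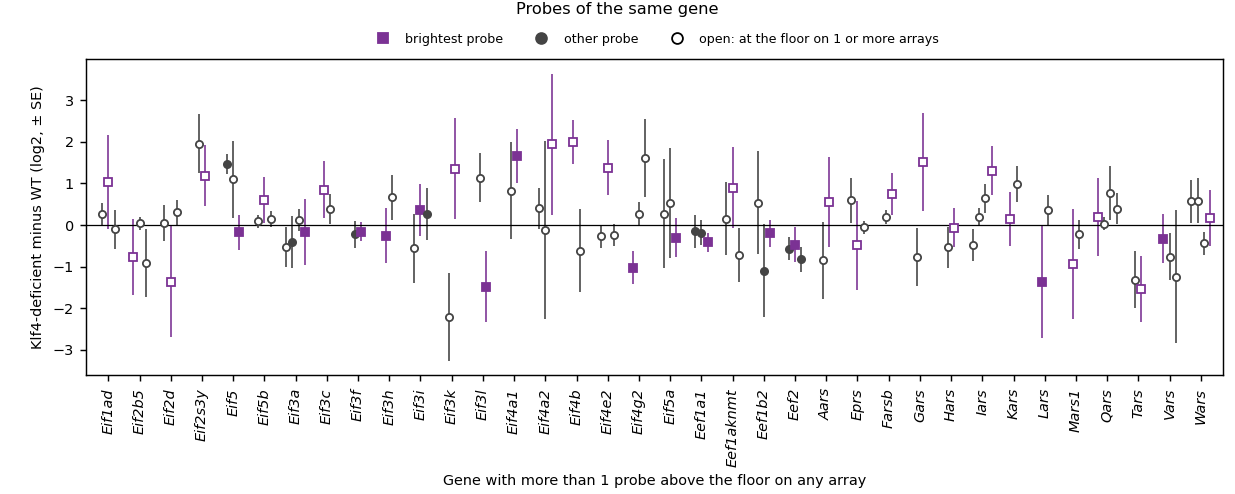
Difference between Klf4-deficient and WT means (log2, y axis) on each tested probe of the 36 translation genes with more than 1 tested probe (x axis, ordered by role); squares are the brightest probe of a gene, circles its other probes, bars the SE (n = 3 arrays per group), and open symbols probes at the floor on 1 or more arrays. Signs were the same on all probes for 14 of the 36 genes, and the Eif5 probes lie at 1.47, 1.1003 and -0.18.

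Translation genes outside these families gave 0 calls among 52 tested of 66 listed, with 27 differences above 0 and 25 below (median 0.08; 0.003 without WT replicate 3). Of 8 release and recycling factors, 4 were above 0 and 4 below. Abce1, which splits ribosomes after termination, read 125.6, 78.8 and -10 in WT against 328.8, 213.2 and 137.6 in Klf4-deficient arrays (1.64 ± 0.62, groups separate), and the release factor Etf1 differed by 1.38 ± 0.93 (0.51 without WT replicate 3). Of 11 regulators of cap and poly(A) tail, 6 were above 0. Paip2, an inhibitor of the poly(A)-binding protein, read 571.7, 632.9 and 9.5 in WT against 1429.1, 1632.6 and 2517 in Klf4-deficient arrays. Its groups were separate, and the difference of 3.00 ± 1.26 was 1.58 without WT replicate 3. Mknk1, the kinase of eIF4E, was 2.31-fold higher against the floor, with 2 of its 3 Klf4-deficient values above the floor and no WT value.

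Stress response targets of eIF2 phosphorylation numbered 13 tested, 5 above 0 and 8 below (median -0.14). Ppp1r15a (GADD34, which removes the phosphate from eIF2) was at the floor in WT and read 17.2, 125.9 and 120.8 in the Klf4-deficient group. That was 2.46-fold higher against the floor. Phgdh, of serine synthesis, was 2.12-fold lower against the floor, with Klf4-deficient arrays at the floor and 142.4, 68.5 and -12 in WT. Of 12 mitochondrial synthetases, 8 were above 0 and 4 below. Fars2, for phenylalanine, read 2.5, -4.1 and 23.8 in WT against 237.8, 71 and 367.6 in Klf4-deficient arrays, at least 5.74-fold higher. Vars2, for valine, read 230.9, 137.9 and 2665.5 in WT against 19.3, 29.7 and 1.2 in Klf4-deficient arrays, at least 13.7-fold lower (-3.78 ± 1.16, and -2.48 without WT replicate 3). Both had separate groups in opposite directions. Of 6 mitochondrial translation factors, 2 were above 0 and 4 below, with Mrrf at -0.64 ± 0.26 and Mtrf1l at -1.46 ± 0.72. Both tested genes of the synthetase complex and of hypusine formation were above 0, Aimp1 at 0.55 ± 0.38 and Dhps at 0.10 ± 0.19. All these genes had limma adjusted p-values of 0.72 to 0.98.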

How the data were processed

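For 45281 probes on 6 arrays the authors deposited linear intensities, made with BeadStudio per the submitters' processing notes. They run from -31 to 37007.2, so a background had been subtracted before deposit. The method of background correction and normalization is not given in the sources used here, and neither is a genome build, so no positions are given. The sorted values of the 6 columns were nearly the same. Exact intensities recur between arrays, such as 935.9 for Eef1b2 in WT replicate 2 and for Eef2 in Klf4-deficient replicate 3. The platform annotation named the probes, and current symbols came from RefSeq by Entrez number (34885 probes with 1 symbol, 18 with several, 10378 unlisted).

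Values were raised to a floor of 32 before taking log2. The probe with the highest mean of these log2 values stood for its gene. The design's wording, highest mean floored value, also allows the mean intensity. The log2 reading was kept after both had been run, because it gave the feature counts of an earlier analysis of these data, and the other reading is an added alternative. Features above 32 on at least 1 array were compared with limma 3.58.1 (R 4.3.3), without a block, with Benjamini-Hochberg adjustment over all features and a threshold of 0.05. Every probe was also fitted as its own feature, and the SE of a second probe comes from that fit. The fit was tested on simulated data. A fold written "at least" is against the floor in 1 group, with all values of the other group above it. Other folds against the floor include values at the floor in both groups, and so depend on where it was set. Genes were named where groups were separate, where all 6 arrays exceeded the floor (the 14 brightest), where p was among the 2 smallest of a role, or from a set list. Members and lists were chosen with earlier results of these data known. Same-numbered WT and Klf4-deficient arrays deviated together at r = 0.04 to 0.05 across features, so numbers were not taken as pairs. Probe and gene sequences were not used here.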

Additional observations from a re-analysis of the deposited data

How the results depend on the processing

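Under 15 alternatives (floors of 16 and 64, an offset of 16, quantile normalization, no filter, above 32 on at least 3 arrays, the mean over probes, trend and robust eBayes, the replicate block, and leaving out each array) limma called 0 member genes, and likewise 0 member probes under the 14 of these that apply to probes, and 0 of the other translation genes. Over all features 1 was called with no filter and 1 with the mean over probes. Quantile normalization could change little, since the columns already held nearly the same values, and the median member difference stayed at -0.06. With the replicate block 0 members were again called, with 2 at an unadjusted p under 0.05 (2.99%, beside 2.14% of all features), and the block changed no call. The median member difference of -0.06 was 0.14 with a floor of 64 and ran from -0.17 to 0.23 when 1 array was left out, lowest without Klf4-deficient replicate 2 and highest without WT replicate 1. With the mean over probes, Eif4g2 turned to 0.28, Eif5 to 0.80 and Eif5a to 0.17. Of the 29 named members tested, 14 kept their sign throughout. Leaving out 1 array turned the sign of the rest (other than Eif4g2, turned by the mean over probes alone), with ranges of -0.49 to 0.016 for Eef1b2, -0.028 to 0.68 for Eef1g, -0.27 to 0.49 for Eif2ak1, -0.67 to 0.35 for Eif2s3x, -0.93 to 0.42 for Eif3a, -0.54 to 1.96 for Eif3d, -0.28 to 0.015 for Eif3f, -0.17 to 0.79 for Eif3i, -2.29 to 0.66 for Eif3l, -0.25 to 1.73 for Eif4e, -0.59 to 0.057 for Eif5, -0.59 to 0.095 for Eif5a, -0.79 to 0.049 for Eif6 and -0.35 to 0.19 for Eif4enif1. For Eif3l the turn without WT replicate 3 came with a change of probe, and on the same probe the difference was -0.67. Eif4b stayed between 1.55 and 2.29, Eif4a3 between 1.02 and 1.72, Eif4a1 between 1.02 and 2.21 and Eef1d between -1.77 and -1.003 when 1 array was left out. An alternative added after seeing the data, the brightest probe by mean intensity, called 0 members and 0 features, gave 202 features higher and 87 lower at an unadjusted p under 0.05 (209 and 89 as reported), and among named members moved Eef1b2 alone, to -1.09. Causes were not tested. Signal limits the rest: values at the floor have no order, and 33.6% of member values lay there.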
